A study of Mus musculus with 5 samples.

Results

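The flank domain described here is the 340 kb of mouse chromosome 5 from 28,105,001 to 28,445,000 (mm10) that holds En2, Cnpy1 and Rbm33 and ends next to Shh. Its members are the 1711 pairs of 5 kb bins that both lie in it and are 50 kb or more apart, of 150,426 such pairs in the captured region. The domain edges and an inner border at bin 28,280,001 were chosen on the wild-type map, so the wild-type values of edges, border and parts are a description. The border leaves a left part of 175 kb with 325 pairs, a right part of 165 kb with 276 pairs, and 1110 pairs between them.

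Contacts were measured by capture Hi-C, which enriches ligated pairs of DNA fragments from a chosen stretch of the genome, in limb buds of E10.5 mouse embryos. The series asks how enhancer function depends on genomic position at the Shh locus. The 5 mutant genotypes were all homozygous and had 1 library each. Embryos of intraTAD2, intraTAD3 and intraTAD2-i4CTCF were bred by mating, whereas those of intraTAD2-2xBorCTCF and of intraTAD2-1xBorCTCF were made by tetraploid aggregation, which builds the embryo from embryonic stem cells on a tetraploid host. The 3 genotypes whose names extend intraTAD2 are called i4CTCF, 2xBorCTCF and 1xBorCTCF. The sources used here do not say what each allele changes or how many embryos were pooled. The reference was the authors' wild-type map, which belongs to no sample, so genotype and origin of the library cannot be told apart in any comparison with it. Likewise the effect of the allele and that of how embryos were made cannot be told apart where a BorCTCF map is set against intraTAD2. Since each genotype had 1 library, nothing was tested, and every interval given is a 95% interval for counting error only, not for the spread between embryos.

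Mammalian chromosomes are folded into domains whose loci contact each other more than they contact their neighbours, and many borders are held by the DNA-binding protein CTCF. En2 encodes a homeobox transcription factor known for patterning the midbrain and hindbrain. Cnpy1 is known from zebrafish as a regulator of FGF signalling at the midbrain-hindbrain boundary, and Rbm33 encodes an RNA-binding protein. Shh codes for a secreted signal that sets the order of digits in the limb.

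The annotation (RefSeq, GRCm38.p6) places En2 at 28,165,696 to 28,172,190 and Cnpy1 at 28,200,819 to 28,245,788 in the left part, and Rbm33 at 28,316,836 to 28,419,244 in the right part. It also lists 7 long noncoding RNA genes, Gm35223, Gm35055, Gm52808, Gm42242, Gm35395, Gm35524 and Gm35602. Gm35223 reaches into the domain with its start only. Shh begins at 28,456,840, outside the domain.

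The highest contact described below joins 15 kb windows around the starts of Gm35223 and Cnpy1. A further 2 contacts, from windows around the starts of Gm35055 and Gm52808, end at that of Rbm33. The promoters of Gm35223, Cnpy1 and Rbm33 (250 bases before to 50 after the start, in the direction of the gene) are shown for that reason. The sequences are RefSeq's. Capitals mark CCCTC, a short core of the CTCF motif, on either strand (GAGGG where it is on the other strand). They lie at chr5:28123866-28124165 (minus strand, Gm35223), chr5:28210119-28210418 (minus strand, the inner start of Cnpy1) and chr5:28316939-28317238 (plus strand, Rbm33). The Rbm33 promoter is that of a start at 28,317,189, inside the gene as placed above and in the same 5 kb bin as its first base.
Gm35223: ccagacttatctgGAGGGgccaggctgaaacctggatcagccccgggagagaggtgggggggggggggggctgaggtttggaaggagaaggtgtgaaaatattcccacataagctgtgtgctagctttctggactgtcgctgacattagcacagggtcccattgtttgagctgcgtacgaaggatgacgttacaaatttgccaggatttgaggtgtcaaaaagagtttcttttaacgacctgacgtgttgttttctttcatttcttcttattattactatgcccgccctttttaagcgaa
Cnpy1: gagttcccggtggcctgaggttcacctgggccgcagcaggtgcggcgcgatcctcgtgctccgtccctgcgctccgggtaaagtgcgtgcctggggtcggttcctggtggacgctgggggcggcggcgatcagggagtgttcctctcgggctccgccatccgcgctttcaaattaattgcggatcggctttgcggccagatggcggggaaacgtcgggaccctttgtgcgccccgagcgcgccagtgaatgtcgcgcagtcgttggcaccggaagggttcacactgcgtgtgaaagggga
Rbm33: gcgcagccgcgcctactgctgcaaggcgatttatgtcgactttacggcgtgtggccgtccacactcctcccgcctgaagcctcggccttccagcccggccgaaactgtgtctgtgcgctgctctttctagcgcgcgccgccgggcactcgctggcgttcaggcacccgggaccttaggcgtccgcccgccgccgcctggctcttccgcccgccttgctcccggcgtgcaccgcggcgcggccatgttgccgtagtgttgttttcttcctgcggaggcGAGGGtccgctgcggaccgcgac
The Cnpy1 and Rbm33 promoters were rich in G and C, at 66.3% with 34 CpG and 69.7% with 41 CpG, while the Gm35223 promoter had 48.7% with 9 CpG. The median over 32,851 promoters was 52.7%. CCCTC occurred once in the Gm35223 promoter, once in that of Rbm33 and not in that of Cnpy1, and 65.95% of all promoters held it, so it does not set these apart. The Rbm33 promoter overlaps that of Gm35602, which runs the other way.

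The values are distance-normalised contacts: each balanced value over its map's average for pairs equally far apart, so that 1 is the average. Recovered contacts in the domain numbered 74,929 for intraTAD2, 66,675 for intraTAD3, 27,304 for i4CTCF, 25,712 for 2xBorCTCF, 47,930 for 1xBorCTCF and 39,763 in wild type. Between 97.8% and 99.8% of the 1711 pairs held a contact, with a median of 12 to 35 contacts per pair. The last 20 kb before Shh was thin: pairs that touch it were 13.2% of the pairs and held 3.09% to 3.68% of the contacts.

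The contact that led the domain joined its left end to Cnpy1. Contact between 15 kb around the start of Gm35223 and 15 kb around the inner start of Cnpy1, 90 kb away, was 1.85 for intraTAD2, 2.13 for intraTAD3, 2.82 for i4CTCF, 2.14 for 2xBorCTCF and 2.34 for 1xBorCTCF, against 2.34 in wild type. In all 6 maps it exceeded each of the other 533 window pairs of that size and distance in the captured region, whose median was 0.966 to 0.981. These windows overlap one another, and this pair was picked after its values were seen. The window at the start of Gm35055 overlaps that of Gm35223. With the inner start of Cnpy1 it had 1.73 to 2.66 in the mutant maps, against 2.14 in wild type. The contact can therefore not be assigned to 1 of these 2 starts. With the other start of Cnpy1, at 28,245,788, Gm35223 had 0.967 to 1.15 in the mutant maps, against 1.15 in wild type.

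The size of this contact differed between maps. It was lower in intraTAD2 than in wild type (log2 ratio -0.34, -0.53 to -0.15) and higher in i4CTCF (0.27, 0.050 to 0.49), where 1 distance curve shared by all maps gave 0.15 (-0.067 to 0.37). Against intraTAD2 it was higher in i4CTCF (0.61, 0.41 to 0.81), 1xBorCTCF (0.34, 0.17 to 0.51) and intraTAD3 (0.20, 0.033 to 0.37), although with the shared curve the intraTAD3 interval included 0 (0.16, -0.0058 to 0.33). Of 534 window pairs at this distance, 4 had a larger i4CTCF to intraTAD2 ratio and 16 a lower intraTAD2 to wild-type ratio. In 2xBorCTCF it lay within counting error of wild type (-0.13, -0.38 to 0.13) and of intraTAD2 (0.21, -0.027 to 0.45). The windows held 776, 798, 435, 271, 700 and 501 contacts, in the order of maps above.

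On the wider scale of 20 kb tiles the same contact was the highest of the 91 tile pairs of the domain in all 6 maps. The first 20 kb met the 20 kb at 28,205,001 with 1.55 for intraTAD2, 1.73 for intraTAD3, 2.11 for i4CTCF, 1.64 for 2xBorCTCF and 1.77 for 1xBorCTCF, against 1.82 in wild type. Next in wild type came the neighbouring tile at 28,125,001 with 28,205,001 (1.41, 1.56, 1.81, 1.45 and 1.69 in the same order of mutant maps, against 1.66) and the first tile with 28,185,001 (1.23 to 1.42 in the mutant maps, against 1.34). The 3 lowest in wild type all involved the En2 tile at 28,165,001. With the tiles at 28,365,001 and 28,345,001, inside Rbm33, it had 0.590 to 0.830 in the mutant maps, against 0.635 and 0.676 in wild type. The lowest joined it to the thin last 20 kb, past the end of Rbm33, at 0.631 to 0.832 in the mutant maps, against 0.612 in wild type (0.381 to 0.844, 47 contacts).

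**Figure D1:**
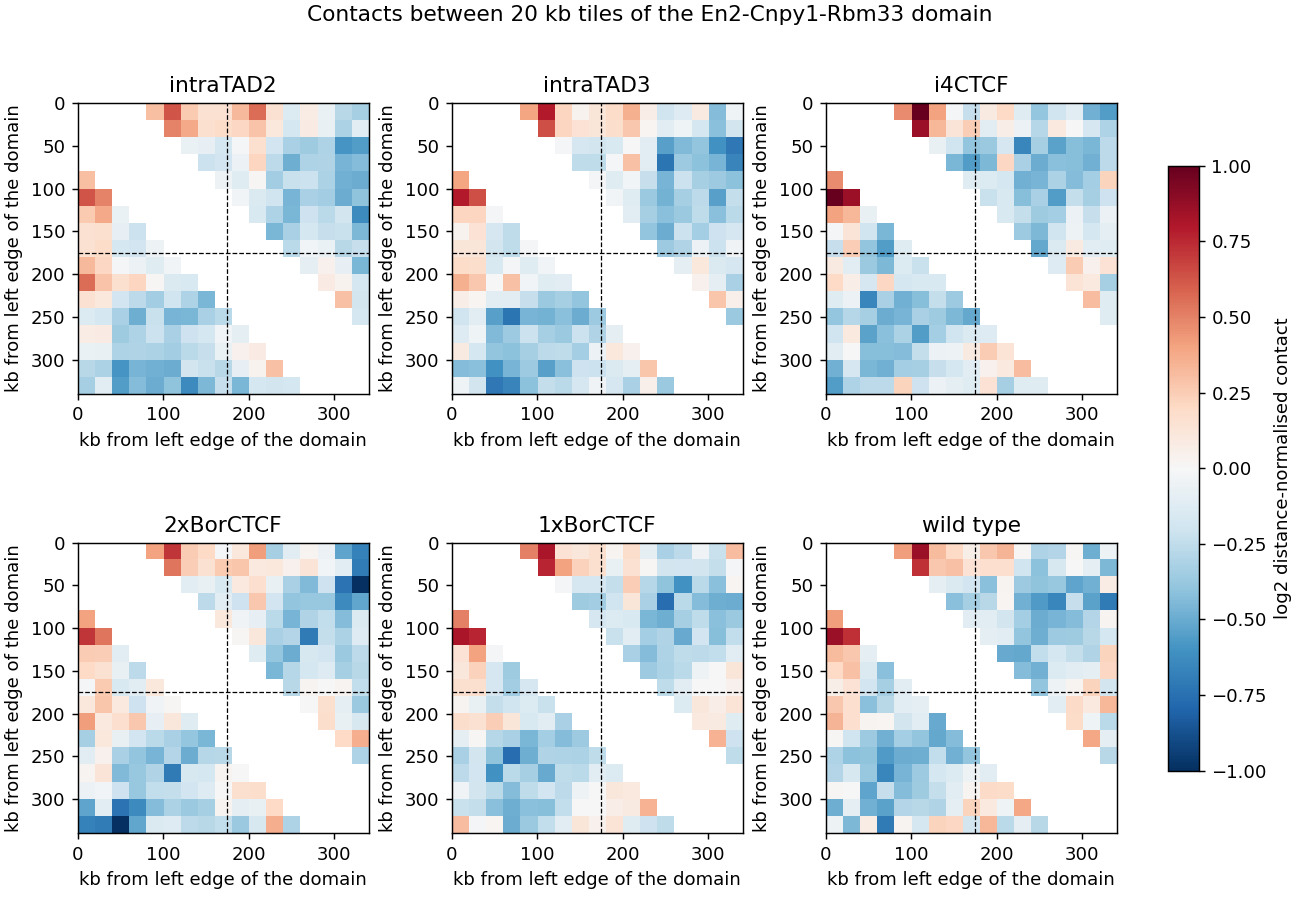
Log2 distance-normalised contact between 20 kb tiles of the domain in each map, axes in kb from its left edge. Dashed lines mark the inner border, and pairs with bins under 50 kb apart are blank. The darkest red square, 110 kb from the left edge, is the contact of the first 20 kb with the inner start of Cnpy1 (2.11 for i4CTCF, 1.82 in wild type).

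A second peak from the left end, in some maps within counting error of the average, lay at the start of Rbm33. It was across the inner border and 200 kb away. Contact between the starts of Gm35055 and of Rbm33, which shares its bin with that of Gm35602, was 1.63 for intraTAD2, 1.35 for intraTAD3, 1.06 for i4CTCF, 1.44 for 2xBorCTCF and 1.14 for 1xBorCTCF, against 1.21 in wild type. The interval included the average of 1 in i4CTCF (0.780 to 1.34), 1xBorCTCF (0.945 to 1.34) and wild type (0.959 to 1.47). Here intraTAD2 was the highest map, above wild type (0.43, 0.069 to 0.79), with i4CTCF (-0.63, -1.05 to -0.20) and 1xBorCTCF (-0.51, -0.83 to -0.20) below intraTAD2. Without balancing the 1xBorCTCF interval included 0 (-0.14, -0.43 to 0.14). In the overlapping windows at the starts of Gm35223 and Rbm33, i4CTCF was again below intraTAD2 (-0.47, -0.88 to -0.051), while the intervals of intraTAD2 relative to wild type (0.33, -0.023 to 0.69) and of 1xBorCTCF relative to intraTAD2 (-0.28, -0.60 to 0.032) included 0. The windows at Gm35055 held 69 (i4CTCF) to 276 (intraTAD2) contacts, and 10 of 512 window pairs at this distance had a lower i4CTCF to intraTAD2 ratio. The order of i4CTCF and intraTAD2 was thus opposite at the Cnpy1 start, on the near side of the border, and at the Rbm33 start, beyond it.

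**Figure D2:**
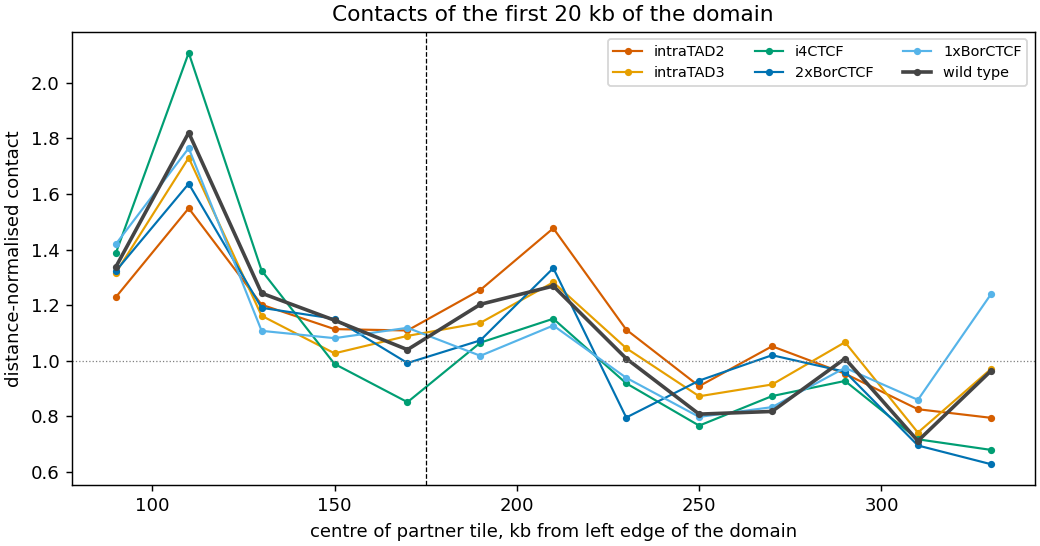
Distance-normalised contact of the first 20 kb of the domain with each later 20 kb tile, by map, against the centre of the tile in kb from the left edge. The dashed line marks the inner border. The i4CTCF line is highest at the Cnpy1 start (2.11, against 1.55 for intraTAD2), and the intraTAD2 line at the Rbm33 start (1.48, against 1.15 for i4CTCF).

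The start of Gm52808, a noncoding gene next to En2, met the start of Rbm33 more often in 3 mutant maps than in wild type. The contact was 1.23 for intraTAD2, 1.34 for intraTAD3, 1.10 for i4CTCF, 1.30 for 2xBorCTCF and 1.09 for 1xBorCTCF, against 0.933 in wild type. The log2 ratio to wild type was 0.40 for intraTAD2 (0.10 to 0.69), 0.52 for intraTAD3 (0.22 to 0.81) and 0.48 for 2xBorCTCF (0.11 to 0.85). Without balancing the 2xBorCTCF interval included 0 (0.29, -0.058 to 0.63). Of 523 window pairs at this distance, 29, 15 and 26 had a higher ratio in these maps. In i4CTCF (0.24, -0.13 to 0.61) and 1xBorCTCF (0.23, -0.097 to 0.56) the interval included 0. These 3 pairs were singled out of 19 pairs of starts after their values were seen. The list of starts held none for En2 or Gm42242, so contacts of their starts were not measured.

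**Figure D3:**
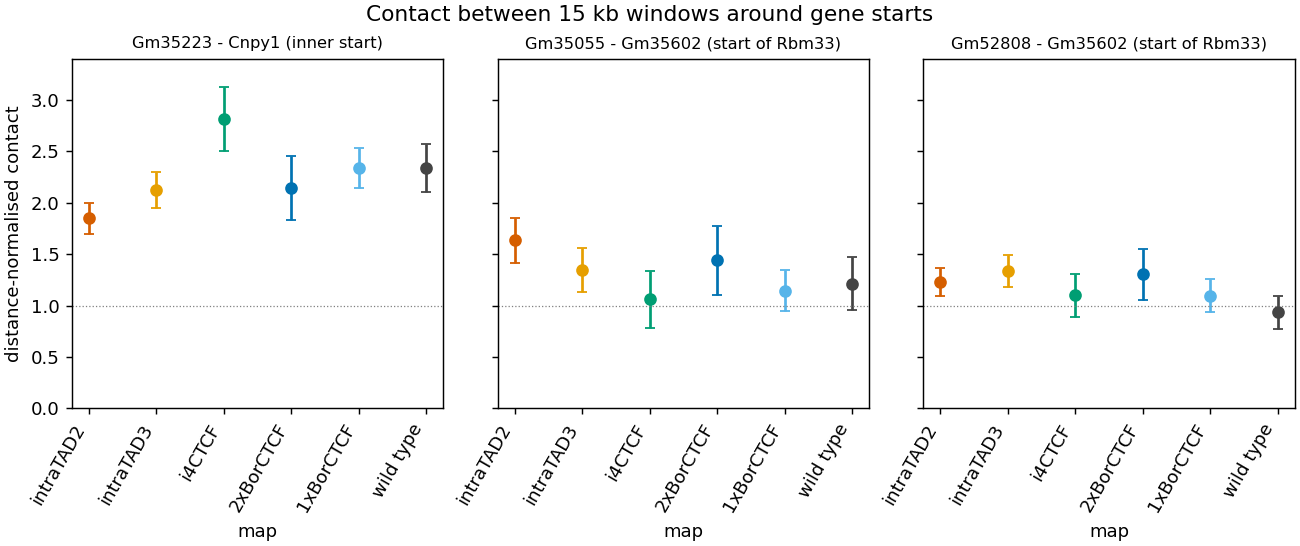
Distance-normalised contact between 15 kb windows around gene starts, by map, with 95% counting intervals. At Gm35223 and Cnpy1 the i4CTCF point (2.82) lies above the intraTAD2 point (1.85); at Gm35055 and the start of Rbm33 it lies below (1.06 against 1.63).

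Over these 19 pairs of starts, which leave out En2 and Gm42242, from 0 to 6 lay beyond counting error, depending on the comparison. Relative to wild type, in either direction, intraTAD2 had 4, intraTAD3 and i4CTCF had 2 each, 2xBorCTCF had 1 and 1xBorCTCF had 0. Of 3064 pairs of 15 kb tiles in the captured region, 8.22%, 9.5%, 7.57%, 8.49% and 8.42% lay beyond it in these maps. Relative to intraTAD2, i4CTCF had 6 (8.03% of all), 1xBorCTCF had 4 (8.84%), intraTAD3 had 4 (8.45%) and 2xBorCTCF had 0 (7.31%). Pairs that share a start share bins, so these counts are not of independent contacts.

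Among the protein-coding genes, with gene bodies and 1 bin either side as windows, no contact was raised above the average for its distance. En2 with Cnpy1 had 0.962 for intraTAD2, 0.959 for intraTAD3, 0.878 for i4CTCF, 0.988 for 2xBorCTCF and 0.965 for 1xBorCTCF, against 0.930 in wild type, all within counting error of wild type. En2 with Rbm33 had 0.812, 0.791, 0.779, 0.840 and 0.777 in these mutant maps, against 0.739 in wild type. It was above wild type in intraTAD2 (0.14, 0.030 to 0.24) and 2xBorCTCF (0.18, 0.046 to 0.32), but with gene body bins alone both intervals included 0, at 0.14 (-0.019 to 0.30) for intraTAD2 and 0.014 (-0.20 to 0.23) for 2xBorCTCF. Cnpy1 with Rbm33 stayed between 0.794 and 0.816 in the mutant maps, against 0.794 in wild type.

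The strongest gene contact of En2 was with Gm35055 at the left end. It was 1.57 for intraTAD2, 1.90 for intraTAD3, 2.09 for i4CTCF, 1.74 for 2xBorCTCF and 1.81 for 1xBorCTCF, against 1.76 in wild type. As at Cnpy1, it was lower in intraTAD2 than in wild type (-0.16, -0.30 to -0.028) and higher in i4CTCF (0.24, 0.084 to 0.40). This contact rests on 10 bin pairs, too few for a check with gene body bins alone. The En2 window overlaps that of Gm52808, which had 1.52 to 1.92 with Gm35055 in the mutant maps, against 1.72 in wild type. The contact can therefore not be assigned to En2 rather than Gm52808. Of 37 gene pairs in all, intraTAD2 had 23 beyond counting error of wild type, intraTAD3 had 12, i4CTCF had 4, 2xBorCTCF had 10 and 1xBorCTCF had 3. With gene body bins alone these counts were 11 for intraTAD2, 5 for intraTAD3, 4 for 2xBorCTCF and 1 for 1xBorCTCF. Gene pairs left with too few bin pairs were not counted there, so these are out of fewer than 37. Of 1675 pairs of 20 kb tiles 8.72%, 12.3%, 7.16%, 9.01% and 8.9% lay beyond counting error in these maps, in either direction, but gene windows are larger and share bins.

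Summed over the whole domain, with each map's own distance curve, no mutant map differed from wild type beyond counting error. Mean contact was 0.943 for intraTAD2, 0.934 for intraTAD3, 0.937 for i4CTCF, 0.947 for 2xBorCTCF and 0.950 for 1xBorCTCF, against 0.945 in wild type, with all intervals of the log2 ratio including 0. The domain was thus slightly under the average for its distances, and lower than the neighbouring Shh domain at the same distances, at 1.08 to 1.12 in the 6 maps, and than 340 kb beyond the border inside Lmbr1, at 1.24 to 1.32. The result depended on the edges of the domain. Without the thin last 20 kb, intraTAD2 (0.030, 0.0085 to 0.052) and 2xBorCTCF (0.030, 0.0025 to 0.058) lay above wild type. With 25 kb off each edge they did so too, at 0.041 (0.017 to 0.065) and 0.054 (0.023 to 0.085). The order of the maps also depended on the scaling. With the shared distance curve i4CTCF (-0.15, -0.18 to -0.11) and 2xBorCTCF (-0.040, -0.073 to -0.0059) lay below wild type and intraTAD2 above it (0.026, 0.00028 to 0.053). Without balancing intraTAD2 (-0.033, -0.052 to -0.014), intraTAD3 (-0.075, -0.095 to -0.056) and 2xBorCTCF (-0.032, -0.057 to -0.0073) lay below wild type and 1xBorCTCF above it (0.042, 0.021 to 0.062).

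Within the domain the left part was the more compact. Its mean contact was 1.12 for intraTAD2, 1.13 for intraTAD3, 1.16 for i4CTCF, 1.14 for 2xBorCTCF and 1.16 for 1xBorCTCF, against 1.15 in wild type. The right part, mostly Rbm33, had 0.980, 0.981, 1.03, 1.01 and 1.02 in these mutant maps, against 1.04 in wild type. Pairs between the parts had 0.881, 0.864, 0.848, 0.876 and 0.872, against 0.861 in wild type. Among those 50 to 100 kb apart every mutant map lay above wild type. The log2 ratios were 0.14 (0.081 to 0.20), 0.12 (0.055 to 0.18), 0.078 (0.0037 to 0.15), 0.18 (0.11 to 0.26) and 0.084 (0.019 to 0.15) in the same order. At 100 to 170 kb only 2xBorCTCF did (0.069, 0.0079 to 0.13), and from 170 kb on none. Choosing the border on the wild-type map favours low contact across it there.

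Over all pairs of a part, differences between maps were small. The right part was lower than in wild type in intraTAD2 (-0.087, -0.15 to -0.023) and intraTAD3 (-0.086, -0.15 to -0.019), and of 526 windows of its size 19 and 52 were lower still. Without the border bin and 2 bins on each side both intervals included 0, at -0.030 (-0.10 to 0.040) for intraTAD2 and -0.051 (-0.12 to 0.021) for intraTAD3, as did that of intraTAD2 with the shared curve (-0.053, -0.12 to 0.012). For pairs 100 kb or more apart in the right part these ratios were -0.23 (-0.38 to -0.084) and -0.17 (-0.33 to -0.021). Relative to intraTAD2, i4CTCF was higher in the left part (0.048, 0.0099 to 0.087) and the right part (0.075, 0.0084 to 0.14) and lower between them (-0.056, -0.096 to -0.017). Without the bins at the border the interval in the right part included 0 (0.036, -0.035 to 0.11). For pairs 100 kb or more apart this ratio was -0.054 (-0.13 to 0.021) in the left part and 0.21 (0.057 to 0.36) in the right part. With 1 distance curve shared by all maps the left and right ratios of i4CTCF turned negative, at -0.11 and -0.078, and that between the parts was -0.23.

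**Figure D4:**
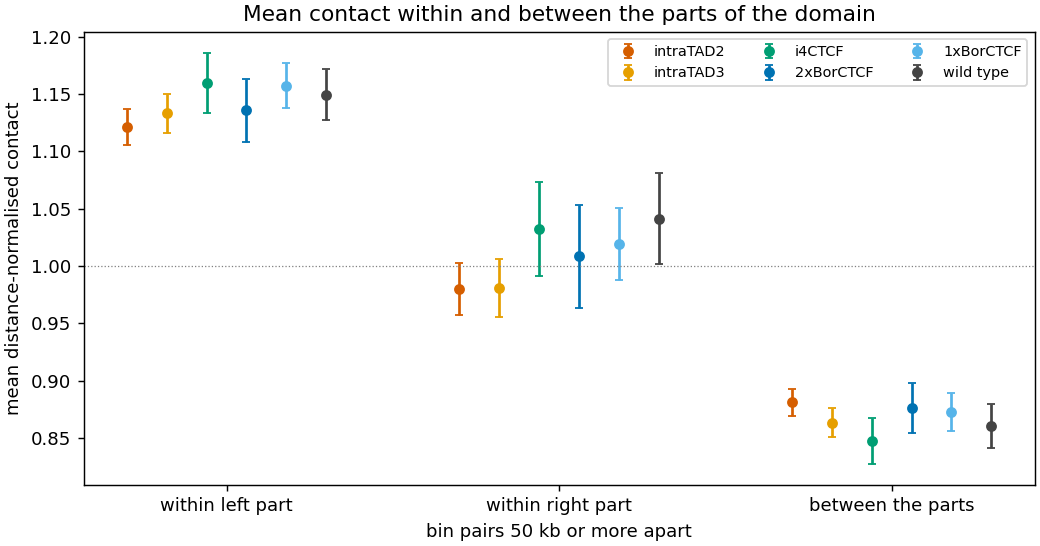
Mean distance-normalised contact of bin pairs within the left part, within the right part and between them, by map, with 95% counting intervals; the axis does not start at 0. Pairs between the parts lie lowest in all 6 maps (0.848 for i4CTCF to 0.881 for intraTAD2, 0.861 in wild type).

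The split into 2 parts, as log2 of contact within over contact between them, was shallower in intraTAD2 than in wild type. It was 0.26 for intraTAD2, 0.30 for intraTAD3, 0.38 for i4CTCF, 0.30 for 2xBorCTCF and 0.33 for 1xBorCTCF, against 0.35 in wild type. The difference from wild type was -0.091 for intraTAD2 (-0.14 to -0.041) and -0.053 for intraTAD3 (-0.11 to -0.0012), whose interval included 0 with the shared curve (-0.025, -0.077 to 0.027) and without the bins at the border (-0.040, -0.096 to 0.016). Against intraTAD2 it was deeper in i4CTCF (0.12, 0.062 to 0.17) and 1xBorCTCF (0.065, 0.020 to 0.11), the interval of 1xBorCTCF including 0 for pairs 100 kb or more apart (0.061, -0.012 to 0.13). Choosing the border on wild type favours a deep split there, and this applies to each comparison with wild type.

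Insulation at the inner border, the log2 contact across it between 100 kb on either side, was -0.20 for intraTAD2, -0.23 for intraTAD3, -0.28 for i4CTCF, -0.20 for 2xBorCTCF and -0.28 for 1xBorCTCF, against -0.30 in wild type. It was a weak border: of 518 positions in the captured region, 67 to 111 had a lower value. Insulation was weaker in intraTAD2 by 0.098 (0.057 to 0.14), in intraTAD3 by 0.069 (0.027 to 0.11) and in 2xBorCTCF by 0.10 (0.049 to 0.15), each relative to wild type. From contacts without balancing, the value at the border bin was above 0 in all 6 maps. The interval included 0 in i4CTCF (0.015, -0.020 to 0.051) and wild type (0.0065, -0.023 to 0.036). This value was not computed at other positions, so whether a dip remained at the border was not tested. Without balancing the differences from wild type were 0.039 (0.0023 to 0.075) for intraTAD2, 0.017 (-0.021 to 0.054) for intraTAD3, whose interval included 0, and 0.070 (0.024 to 0.12) for 2xBorCTCF.

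The lowest position within 50 kb of the border lay at 28,310,001 for intraTAD2, 28,295,001 for intraTAD3, 28,285,001 for i4CTCF, 28,290,001 for 2xBorCTCF and 28,280,001 for 1xBorCTCF, against 28,270,001 in wild type. In no map was its interval clear of that at the border bin, so these positions do not show a shift of the border. For intraTAD2 the values were -0.245 (-0.268 to -0.222) and -0.202 (-0.225 to -0.178). At the edge beside Shh insulation was far stronger, at -1.12 for intraTAD2, -1.06 for intraTAD3, -1.05 for i4CTCF, -0.78 for 2xBorCTCF and -0.97 for 1xBorCTCF, against -1.06 in wild type.

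**Figure D5:**
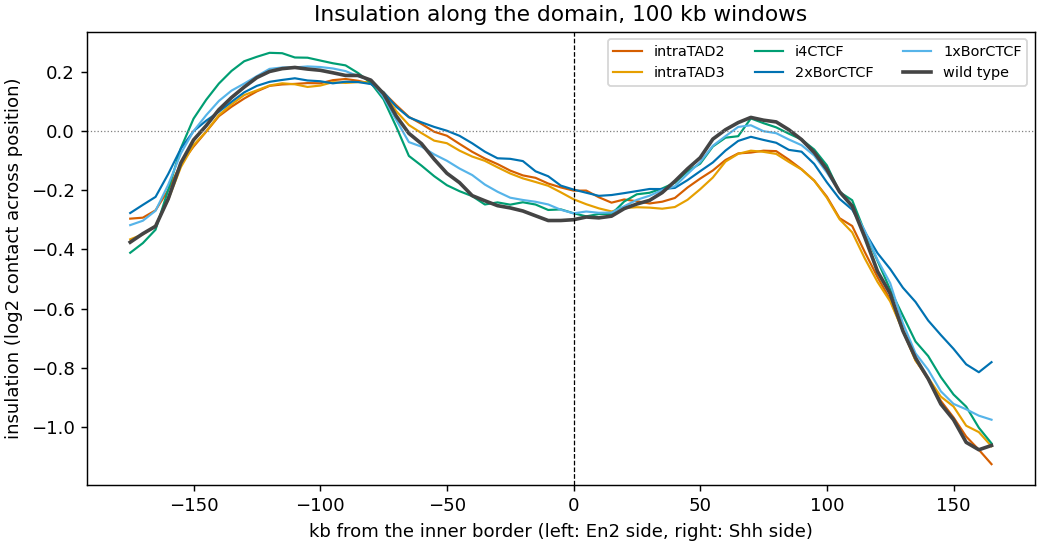
Insulation along the domain, by map, against distance in kb from the inner border (dashed line); lower means less contact across the position. A shallow dip near the inner border (-0.20 for intraTAD2, -0.30 in wild type) is followed by the deep edge beside Shh (-1.12 for intraTAD2, -1.06 in wild type).

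Few tile pairs of the domain changed 1.5-fold or more. Relative to wild type, intraTAD2 had 4 of 91 (1.31% of 1675 in the captured region), intraTAD3 had 1 (1.91%), i4CTCF had 0 (2.99%), 2xBorCTCF had 3 (4.54%) and 1xBorCTCF had 0 (2.93%). Relative to intraTAD2, i4CTCF had 2 (1.49%), 2xBorCTCF had 1 (2.69%), 1xBorCTCF had 2 (1.31%) and intraTAD3 had 0 (0.657%). Relative to 1xBorCTCF, 2xBorCTCF had 3 (2.45%). All of these involve the last 20 kb, where contacts are few. The furthest joined the tile at 28,145,001 to that at 28,425,001, with 0.490 for 2xBorCTCF (20 contacts) against 1.06 in wild type (55 contacts), a log2 ratio of -1.11 (-2.11 to -0.10).

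Of the contacts of domain bins at 50 kb or more, 31.5% stayed in the domain in intraTAD2, 31.7% for intraTAD3, 30.9% for i4CTCF, 31.3% for 2xBorCTCF and 29.96% for 1xBorCTCF, against 30.2% in wild type. The share that reached beyond the Shh domain was 13.7%, 13.7%, 14.3%, 12.9% and 14.6% in these mutant maps, below 16.1% in wild type in each. The right part alone kept 27.9% to 29.3% in the domain in the mutant maps, against 28.4% in wild type. It had more with the Shh domain, 33.9% to 34.9% in the mutant maps, against 32.8% in wild type, but that domain is longer, at 920 kb. These shares are of balanced signal that was not distance-normalised, so each map's own fall of contact with distance enters them. Distance-normalised contact of the right part with the Shh domain was 1.22 for intraTAD2, 1.28 for intraTAD3, 1.24 for i4CTCF, 1.17 for 2xBorCTCF and 1.15 for 1xBorCTCF, against 1.14 in wild type. The log2 ratio to wild type was 0.094 for intraTAD2 (0.064 to 0.12), 0.16 for intraTAD3 (0.13 to 0.19) and 0.12 for i4CTCF (0.080 to 0.15). In every map the right part's contact with the Shh domain was above that within the right part, which was 0.980 to 1.03 in the mutant maps, against 1.04 in wild type. The left part had less contact with the Shh domain, 0.857 for intraTAD2, 0.837 for intraTAD3, 0.869 for i4CTCF, 0.861 for 2xBorCTCF and 0.889 for 1xBorCTCF, against 0.871 in wild type. Its log2 ratio to wild type was negative for intraTAD3 (-0.057, -0.085 to -0.028) and positive for 1xBorCTCF (0.030, 0.0011 to 0.059), and the other intervals included 0. No alternative distance, distance curve or balancing was run on contact with the Shh domain, on the share beyond it or on the shares of the right part.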

How the data were processed

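Capture Hi-C maps of limb buds of 5 mutant genotypes and a wild-type map were used; 1 column of values, that of wild type, belongs to no sample. Per the labels' protocols, tissue was fixed, cut with DpnII, religated and captured. Bowtie2 2.2.6 and 2 genome builds, mm9 and mm10, stand without a role in the submitters' processing notes; gene positions matched mm10. The deposited values are a contact signal between 5 kb bins, which the authors balanced (KR) map by map; the mapping quality cutoff of 30 is, like the balancing, given by the file names.

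Whole contacts were recovered from the signal, 100% whole within 0.01, and totalled 1,121,373 (2xBorCTCF) to 2,942,790 (intraTAD2), with 1,646,616 in wild type. In the captured region 10 bins whose partners numbered under 25% of the median were dropped, none of them in the domain. Values were divided by the mean at their distance. The 95% intervals are weighted Poisson intervals, and PCR copies may make contacts less independent. Insulation used pairs 10 kb or more apart. Recovery was checked on simulated maps. The intervals were checked on maps simulated with the same Poisson counting and without balancing factors. That check does not cover PCR copies, balancing or the spread between embryos. Analyses ran in Python 3.11.15 with NumPy 2.4.6 and pandas 2.3.3. Named items are all annotated genes of the domain, the 3 highest and 3 lowest tile pairs in wild type and those furthest past the 1.5-fold threshold; others were chosen after their values were seen. The members and lists were chosen with earlier results of these data known. The alternatives tried are distance, edges, border, tiles, windows, scaling and balancing.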

Additional observations from a re-analysis of the deposited data

How the results depend on the processing

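No paired analysis was possible because each genotype had 1 library and no comparison rests on a test. A value is called moved when an alternative took it outside its own counting interval. The contact of the Gm35223 and Cnpy1 starts kept its direction in i4CTCF relative to intraTAD2 and to wild type, and in intraTAD2 relative to wild type, under all 4 alternatives run, although with the shared distance curve the i4CTCF to wild-type interval (0.15, -0.067 to 0.37) included 0. The depth of the last 20 kb limits every value that includes it. Differences of a few hundredths on the log2 scale in the parts depend on how distance is normalised. In the sentences below, values of 2 maps are log2 ratios or differences. The cause of each change was not tested.

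With 25 kb off each edge, domain contact was 0.041 for intraTAD2 over wild type, 0.054 for 2xBorCTCF over wild type, -0.050 for i4CTCF over intraTAD2, -0.022 for 1xBorCTCF over intraTAD2 and 0.035 for 2xBorCTCF over 1xBorCTCF.

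With map-total scaling and 1 distance curve shared by all maps, domain contact was 0.026 for intraTAD2 over wild type, -0.15 for i4CTCF over wild type, -0.040 for 2xBorCTCF over wild type, -0.029 for 1xBorCTCF over wild type, -0.17 for i4CTCF over intraTAD2, -0.066 for 2xBorCTCF over intraTAD2, -0.056 for 1xBorCTCF over intraTAD2 and -0.065 for intraTAD3 over intraTAD2. Left-part contact was -0.00065 for intraTAD2 over wild type, -0.11 for i4CTCF over wild type, -0.029 for 1xBorCTCF over wild type, -0.11 for i4CTCF over intraTAD2, -0.049 for 2xBorCTCF over intraTAD2, -0.029 for 1xBorCTCF over intraTAD2 and -0.026 for intraTAD3 over intraTAD2. Right-part contact was -0.13 for i4CTCF over wild type, -0.078 for i4CTCF over intraTAD2 and -0.017 for 1xBorCTCF over intraTAD2. Contact between the parts was -0.17 for i4CTCF over wild type, -0.025 for 2xBorCTCF over wild type, -0.23 for i4CTCF over intraTAD2, -0.084 for 2xBorCTCF over intraTAD2, -0.077 for 1xBorCTCF over intraTAD2 and -0.088 for intraTAD3 over intraTAD2.

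From recovered contacts without balancing, domain contact was -0.033 for intraTAD2 over wild type, -0.075 for intraTAD3 over wild type, -0.032 for 2xBorCTCF over wild type, 0.042 for 1xBorCTCF over wild type, 0.074 for 1xBorCTCF over intraTAD2, -0.043 for intraTAD3 over intraTAD2 and -0.073 for 2xBorCTCF over 1xBorCTCF. Log2 within over between was 0.33 for intraTAD2, 0.36 for intraTAD3, 0.42 for 1xBorCTCF and 0.41 for wild type. Insulation at the inner border was 0.045 for intraTAD2, 0.023 for intraTAD3, 0.015 for i4CTCF, 0.077 for 2xBorCTCF, 0.057 for 1xBorCTCF, 0.0065 for wild type, 0.039 for intraTAD2 minus wild type, 0.017 for intraTAD3 minus wild type, 0.012 for 1xBorCTCF minus intraTAD2 and 0.019 for 2xBorCTCF minus 1xBorCTCF. Contact of the starts of Gm35055 and Gm35602 was -0.14 for 1xBorCTCF over intraTAD2. Contact of the starts of Gm35223 and Cnpy1 was 0.27 for 1xBorCTCF over wild type and 0.58 for 1xBorCTCF over intraTAD2.

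Without the last 20 kb, an alternative chosen after the data were seen, domain contact was 0.030 for intraTAD2 over wild type and -0.020 for 1xBorCTCF over intraTAD2. Contact between the parts was 0.084 for intraTAD2 over wild type, 0.076 for 2xBorCTCF over wild type, -0.065 for 1xBorCTCF over intraTAD2 and 0.057 for 2xBorCTCF over 1xBorCTCF. Log2 within over between was 0.43 for i4CTCF, 0.39 for 1xBorCTCF, 0.42 for wild type, 0.11 for 1xBorCTCF minus intraTAD2 and -0.090 for 2xBorCTCF minus 1xBorCTCF. The number of tile pairs past the fold was 0 for intraTAD2 over wild type, intraTAD3 over wild type, 2xBorCTCF over wild type, i4CTCF over intraTAD2, 2xBorCTCF over intraTAD2, 1xBorCTCF over intraTAD2 and 2xBorCTCF over 1xBorCTCF.

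At 100 kb or more, right-part contact was -0.23 for intraTAD2 over wild type, -0.17 for intraTAD3 over wild type, -0.19 for 2xBorCTCF over wild type, 0.21 for i4CTCF over intraTAD2, 0.16 for 1xBorCTCF over intraTAD2, 0.059 for intraTAD3 over intraTAD2 and -0.11 for 2xBorCTCF over 1xBorCTCF. Left-part contact was -0.056 for intraTAD3 over wild type, -0.060 for i4CTCF over wild type, -0.054 for i4CTCF over intraTAD2, -0.016 for 1xBorCTCF over intraTAD2 and -0.050 for intraTAD3 over intraTAD2. Log2 within over between was 0.21 for intraTAD2, 0.23 for intraTAD3, 0.31 for i4CTCF, 0.23 for 2xBorCTCF and 0.27 for 1xBorCTCF. Percent of contacts kept in the domain was 18.8% for intraTAD2, 18.6% for intraTAD3, 17.8% for i4CTCF, 18.3% for 2xBorCTCF, 17.5% for 1xBorCTCF and 17.8% for wild type.

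Without the border bin and 2 bins on each side, log2 within over between was 0.32 for intraTAD2, 0.36 for intraTAD3, 0.43 for i4CTCF, 0.36 for 2xBorCTCF, 0.39 for 1xBorCTCF and 0.40 for wild type.

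With 50 kb windows, insulation at the inner border was -0.13 for intraTAD2, -0.16 for intraTAD3, -0.24 for i4CTCF, -0.15 for 2xBorCTCF, -0.23 for 1xBorCTCF and -0.26 for wild type.

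With no bin left out, insulation at the inner border was -0.20 for intraTAD3. The number of tile pairs past the fold was 0 for 2xBorCTCF over intraTAD2.

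With 150 kb windows, insulation at the inner border was -0.24 for 1xBorCTCF.

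With a 2-fold threshold, the number of tile pairs past the fold was 0 for intraTAD2 over wild type, 0 for intraTAD3 over wild type, 1 for 2xBorCTCF over wild type, 0 for i4CTCF over intraTAD2, 0 for 2xBorCTCF over intraTAD2, 0 for 1xBorCTCF over intraTAD2 and 1 for 2xBorCTCF over 1xBorCTCF.

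With 40 kb tiles, the number of tile pairs past the fold was 0 for intraTAD2 over wild type, intraTAD3 over wild type, 2xBorCTCF over wild type, i4CTCF over intraTAD2, 2xBorCTCF over intraTAD2, 1xBorCTCF over intraTAD2 and 2xBorCTCF over 1xBorCTCF.

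With gene body bins alone, the number of gene pairs beyond the counting interval was 11 for intraTAD2 over wild type, 5 for intraTAD3 over wild type, 4 for 2xBorCTCF over wild type and 1 for 1xBorCTCF over wild type. Gene pairs left with too few bin pairs fell out of these counts.

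With 2 bins either side of a start (also chosen after the data were seen), contact of the starts of Gm35223 and Cnpy1 was 0.40 for i4CTCF over intraTAD2.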
